A study of Mus musculus with 22 samples.

Results

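Daily taurodeoxycholic acid (TDCA) was compared with no such treatment in the liver of tumour-bearing mice. The comparison set the 8 libraries of the C26-TDCA group against the 8 of the C26 group, 16 of the 22 in the series, over all 14785 genes that passed the filter on low counts, of 15448 in the table. All mice were male, wild-type and of the strain CD2F1, a cross between BALB/c and DBA/2, and polyA RNA of the liver was sequenced. Each library is labelled as a sample of its own, but the labels do not say that each came from a separate animal, and the tests then measure only the spread between these samples. C26 mice carried transplanted cells of C26, a mouse colon carcinoma line used as a model of cancer cachexia, and the labels give them no other treatment. C26-TDCA mice carried the same cells and received 10 mg/kg of TDCA by intraperitoneal injection every day. The labels give no injections of vehicle to the C26 mice, so the daily injection and TDCA itself cannot be told apart. The sources used here do not give the site of the tumour cells, the length of treatment or the age of the mice. The 6 sham-injected mice without tumour (CT) were used only as a reference level and in the estimate of spread.

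TDCA is deoxycholic acid joined to taurine. Deoxycholic acid is called a secondary bile acid because bacteria in the gut form it from cholic acid made by the host. The liver makes primary bile acids from cholesterol, with Cyp7a1 as the rate-limiting enzyme, and takes returning bile acids up from portal blood through transporters such as the one encoded by Slc10a1. Inside the hepatocyte, bile acids act on the nuclear receptor FXR (Nr1h4), which induces the repressor Nr0b2 and lowers bile acid synthesis. Conjugated bile acids also act on the membrane receptor S1pr2. The series title names hepatic cholesterol in cachectic mice as its subject, so genes of bile acid and cholesterol handling are given in full beside the genes that changed.

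Libraries held 17.5 to 28.1 M counts for the C26 group, and 20.5 to 28.3 M for C26-TDCA, and the means of 24.1 ± 3.55 M (SD, n = 8) and 24.9 ± 2.82 M differed by less than that spread (two-sided exact permutation p = 0.653). Levels are given as CPM, the count scaled to a library of 1000000 counts after TMM normalisation. Markers of hepatocytes were abundant in every library, with the 10 genes of that list summing to 62245 to 83838 CPM in C26 and 68526 to 81779 CPM in C26-TDCA. In bulk liver, fewer cells of a type and less RNA per cell cannot be told apart. A pair of libraries stood apart from the rest of their groups among the genes described below. C26 01 was the highest C26 library for 159 of the 256 genes called as higher (62.1%), and C26-TDCA 08 was the lowest C26-TDCA library for 195 of them (76.2%). Among the 35 genes called as lower, C26 01 was the lowest C26 library for 3 and C26-TDCA 08 the highest C26-TDCA library for 6. The same shares over all genes tested were not taken. C26 01 also had the highest slope of log2 CPM on transcript length in C26 (0.648). C26-TDCA 08 had the highest slope on transcript GC in C26-TDCA (0.072). The part of these slopes, described below, in the shares was not tested. For Zfp871 and F830016B08Rik, C26 01 lay within the range of the other C26-TDCA libraries and C26-TDCA 08 within that of the other C26 libraries. Whether these libraries were exchanged was not tested, and an exchange would change the meaning of every count and fold that includes them. The labels were kept as given. Counts are therefore given with and without both, and since these libraries were singled out by the levels that make the calls, the counts without them are a description.

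TDCA-treated livers differed from those of tumour-bearing mice without TDCA in a small share of genes, most of them higher and by less than 2-fold. By edgeR's quasi-likelihood test, 256 of 14785 genes (1.73%) were higher and 35 (0.237%) lower at a Benjamini-Hochberg adjusted p under 0.05, 1.97% in all. At an unadjusted p under 0.05 there were 2335 genes (15.8%). The median log2 fold change was 0.46 among the higher genes (1.38-fold), 25 of which changed by more than 1, and -0.29 among the lower genes, of which 0 changed by more than 1. Over all genes tested the median was -0.01. DESeq2 called 443 higher and 111 lower genes, and a fit to the C26 and C26-TDCA libraries alone called 41 and 4. Without C26 01 and C26-TDCA 08 together, 691 genes were higher and 94 lower. The groups did not overlap at all, with every C26-TDCA library on one side of every C26 library, for 14 higher (0.0947%) and 8 lower (0.0541%) of the genes tested, and for 13 of the 256 and 6 of the 35 called genes.

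Genes that rose in C26-TDCA had long, AT-rich transcripts. Their median transcript length was 7462 bases and their median GC content 42.6%, against 3383 bases and 57.5% for the genes that fell and 3151 bases and 49.3% for all genes tested. Transcripts over 5000 bases made up 79.3% of the higher genes (203 of 256), 14.3% of the lower genes (5 of 35) and 20.4% of all genes. Genes were also split into 10 equal bins by length or by GC. In the bin of the longest transcripts 154 genes (10.4%) were higher and the median log2 fold change was 0.16. In the bin of lowest GC 92 genes (6.23%) were higher and 0 lower, with a median of 0.12. In the bin of highest GC 0 were higher and 18 lower, with a median of -0.11.

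The middle of the coding sequence of the 3 genes with the lowest p in each direction, among called genes of at least 10 CPM with an established symbol, is printed to show this difference in base composition, 90 bases each, 5′ to 3′ on the gene's strand, with G and C in capitals. The sequences are from GENCODE M21 transcripts on GRCm38. The first 3 genes were higher in C26-TDCA and the last 3 lower.
F8: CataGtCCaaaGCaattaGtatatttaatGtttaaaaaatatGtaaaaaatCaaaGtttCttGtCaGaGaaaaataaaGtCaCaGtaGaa
Zfp871: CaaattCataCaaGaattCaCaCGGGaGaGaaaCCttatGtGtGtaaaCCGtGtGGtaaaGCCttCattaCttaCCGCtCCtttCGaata
Baz2b: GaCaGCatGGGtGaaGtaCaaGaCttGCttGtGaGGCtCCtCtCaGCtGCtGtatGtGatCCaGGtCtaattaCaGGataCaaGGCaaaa
Myh14: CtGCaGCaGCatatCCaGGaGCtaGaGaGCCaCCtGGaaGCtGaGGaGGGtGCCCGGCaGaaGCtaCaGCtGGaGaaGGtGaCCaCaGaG
Slc35c2: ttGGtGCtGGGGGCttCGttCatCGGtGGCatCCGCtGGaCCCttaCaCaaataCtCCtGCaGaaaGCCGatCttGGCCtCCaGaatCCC
Cdk2ap2: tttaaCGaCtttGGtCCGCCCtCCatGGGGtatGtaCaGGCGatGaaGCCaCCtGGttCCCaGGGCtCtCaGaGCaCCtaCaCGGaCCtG
The F8 stretch, bases 3433 to 3522 of the coding sequence, holds 21 G or C of 90, that of Zfp871 36 and that of Baz2b 42. The stretches of Myh14, Slc35c2 and Cdk2ap2 hold 54, 51 and 52. The whole coding sequences had 39.4% GC in F8, 45.3% in Zfp871, 48.2% in Baz2b, 61.2% in Myh14, 57.1% in Slc35c2 and 62.2% in Cdk2ap2. In GRCm38 coordinates, F8 occupies bases 75172715 to 75382615 of chromosome X, Zfp871 bases 32765496 to 32788287 of chromosome 17 and Baz2b bases 59899363 to 60209839 of chromosome 2. Myh14 occupies bases 44605803 to 44670843 of chromosome 7, Slc35c2 bases 165276554 to 165287869 of chromosome 2 and Cdk2ap2 bases 4097182 to 4099019 of chromosome 19. Cdk2ap2 is on the plus strand and the other 5 genes are on the minus strand.

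The same dependence on base composition was seen library by library. The slope of log2 CPM on transcript GC, per 10 percentage points and over genes within a library, was 0.098 ± 0.088 (SD, n = 8; 0.014 to 0.277) in C26 and -0.042 ± 0.060 (n = 8; -0.127 to 0.072) in C26-TDCA. The difference passed a two-sided exact permutation test (p = 0.00124, adjusted p = 0.00746 over 6 library measures), and C26-TDCA 08 was the only C26-TDCA library above 0. The slope on transcript length was 0.581 ± 0.049 in C26 and 0.621 ± 0.036 in C26-TDCA (exact permutation p = 0.0889, adjusted p = 0.267). CT libraries had GC slopes of -0.157 to -0.004. These slopes are over all genes tested. Over genes of at least 10 CPM on average, GC slopes were -0.034 to 0.220 in C26 and -0.182 to 0.014 in C26-TDCA. Those of C26 01, 02 and 03 then lay below 0. Length slopes over these genes were all negative, at -0.329 to -0.025 in C26 and -0.205 to -0.017 in C26-TDCA. With a smooth trend on length and GC removed from each library, 9 higher and 8 lower genes were called, of which 9 and 2 were among the calls above. The sign was kept by 243 of the 256 higher and all 35 lower genes, and the median log2 fold change of each bin by length or GC lay between -0.06 and -0.02. Of the genes given below with values, 27 were called higher and 9 lower, and with the trend removed 5 and 1 of these were called. In the fit to the C26 and C26-TDCA libraries alone, 14 of the 27 and 6 of the 9 lost their call. Those that kept it were Zfp871, F830016B08Rik, Bdp1, Prex2, Kmt2c, Dmxl2, F8, Baz2b, Ttc39b, Smg1, Ankrd12, Zfp644, Zfp445, Myh14, Cdk2ap2 and Slc35c2. The labels give no batch or RNA integrity value, and the part of either in these slopes was not tested.

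**Figure D1:**
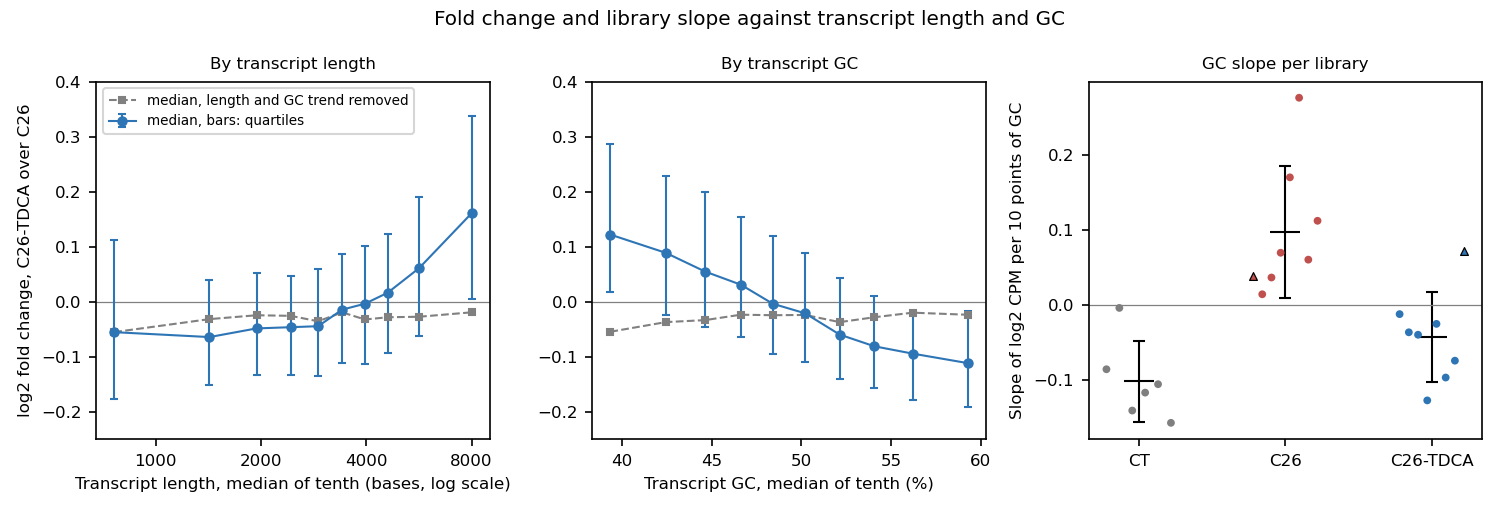
Left and middle, median log2 fold change of C26-TDCA over C26 (circles, with bars from the lower to the upper quartile of genes) in 10 bins of genes by transcript length in bases on a log scale and by GC in percent, and the medians with the length and GC trend removed (squares). Right, slope of log2 CPM per 10 percentage points of GC in each library, with mean and SD per group (triangles: C26 01 and C26-TDCA 08). The median rises to 0.16 in the bin of the longest transcripts and falls from 0.12 to -0.11 along GC. Over all genes tested, as drawn, every C26 library lies above 0 where 7 of 8 C26-TDCA libraries lie below. Over genes of at least 10 CPM on average, the slopes of C26 01, 02 and 03 are also below 0 (-0.006, -0.034 and -0.004).

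Zinc finger genes and chromatin regulators were among the genes with the lowest p. Zfp871, a zinc finger gene, stood at 1.05, 1.49 and 8.79 CPM (lowest, median and highest library) in C26 and at 1.68, 16.1 and 26.8 CPM in C26-TDCA. Its highest C26 value was that of C26 01 and its lowest C26-TDCA value that of C26-TDCA 08. The other 7 libraries of each group did not overlap, at 1.05 to 2.03 and 8.15 to 26.8 CPM. The log2 fold change was 2.74 (SE 0.45, adjusted p = 0.0111), and 3.65 without both libraries. CT libraries lay at 5.10 to 14.2 CPM. F830016B08Rik, which has no Zfp name and is not counted as a zinc finger gene here, was chosen after its values were seen. It had the same arrangement, at 16.4 CPM in C26 01 and 1.74 to 4.06 CPM in the other C26 libraries. In C26-TDCA it stood at 3.13 CPM in C26-TDCA 08 and 12.2 to 35.2 CPM in the other libraries (log2 fold change 2.28, SE 0.43, adjusted p = 0.0143). Zfp871 and F830016B08Rik each belong to a family with related copies, and the sources used here do not say how reads matching more than 1 gene were counted.

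Of 332 tested genes with a Zfp name, 11 were called higher and 0 lower, or 3.31% against 1.73% of all genes, and their median log2 fold change was 0.06 against -0.01 for all genes. After removal of the trend on length and GC the median was 0.00 and Zfp871 alone was called. Zfp445, a regulator of imprinted genes, stood at 104, 137 and 161 CPM in C26 and 154, 194 and 213 CPM in C26-TDCA (log2 fold change 0.49, SE 0.10, adjusted p = 0.0174). Only C26-TDCA 08 lay within the C26 range. Zfp644 stood at 15.7 ± 2.11 CPM in C26 and 21 ± 1.79 CPM in C26-TDCA (0.42, SE 0.08, adjusted p = 0.0143), and 7 of 8 C26-TDCA libraries lay above the highest C26 library.

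Of 62 chromatin modifiers and remodellers, 8 were higher and 0 lower (Kmt2c, Setd2, Ash1l, Kdm5a, Arid2, Chd1, Chd9 and Tet2), or 12.9% against 1.73% of all genes higher. The list's median log2 fold change was 0.07 and its median transcript length 8008 bases. With the trend removed its median was -0.01 and Kmt2c was the only member called. Kmt2c, a methyltransferase for lysine 4 of histone H3 at enhancers, stood at 19.0, 23.0 and 34.2 CPM in C26 and 24.4, 43.4 and 49.1 CPM in C26-TDCA (0.76, SE 0.13, adjusted p = 0.0117). In C26-TDCA 6 of 8 libraries lay above the highest C26 library, which was C26 01, and CT stood at 41.6 ± 3.99 CPM (n = 6). Ash1l, a methyltransferase for lysine 36 of histone H3, went from 50.5 ± 11.2 to 74.1 ± 11.2 CPM (0.55, SE 0.12, adjusted p = 0.0180). Chd1, a remodeller of nucleosomes on transcribed genes, went from 41.4 ± 5.83 to 54.9 ± 7.83 CPM (0.41, SE 0.09, adjusted p = 0.0202). Baz2b, a bromodomain protein that is not on the list, stood at 9.30, 13.1 and 16.3 CPM in C26 and 14.2, 20.3 and 26.9 CPM in C26-TDCA (0.66, SE 0.11, adjusted p = 0.0117). Here too C26-TDCA 08 was the one C26-TDCA library inside the C26 range, and Baz2b was also called with the trend removed (0.47, adjusted p = 0.0224 by edgeR).

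The lists of Mediator and RNA polymerase II genes and of splicing factors held 4 called genes, all higher. Of 33 Mediator and RNA polymerase II genes 1 was higher (3.03%, against 1.73% of all genes) and 0 lower, with a median of -0.10. This was Med14, the scaffold subunit of Mediator, at 11.5 ± 1.65 CPM in C26 and 15.1 ± 2.11 CPM in C26-TDCA (0.38, SE 0.09, adjusted p = 0.0271). Of 49 splicing factors 3 were higher (6.12%) and 0 lower, with a median of -0.01. Son, a nuclear speckle protein, went from 168 ± 47.3 to 238 ± 39.5 CPM (0.51, SE 0.13, adjusted p = 0.0444), and C26 01 alone stood at 268 CPM against 113 to 189 CPM in the other C26 libraries. Prpf4b, a kinase of the spliceosome, and Rbm25, an RNA-binding splicing regulator, rose by 0.30 (SE 0.08, adjusted p = 0.0403) and 0.27 (SE 0.07, adjusted p = 0.0393). Smg1, the kinase of nonsense-mediated mRNA decay, stood at 32.7, 39.5 and 58.8 CPM in C26 and 40.6, 65.3 and 83.4 CPM in C26-TDCA (0.67, SE 0.12, adjusted p = 0.0141), with C26 01 at the top of its group and C26-TDCA 08 at the bottom of its own. Bdp1, a subunit of the RNA polymerase III factor TFIIIB, stood at 6.87, 10.2 and 16 CPM and at 9.82, 18.3 and 21.5 CPM (0.78, SE 0.15, adjusted p = 0.0143). Its other 7 libraries of each group did not overlap, at 6.87 to 11.1 and 16.9 to 21.5 CPM.

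A further 4 higher genes of varied roles were named by their fold change or p. Prex2, an exchange factor for the GTPase Rac, went from 7.54 ± 1.49 to 12.9 ± 2.27 CPM (0.77, SE 0.16, adjusted p = 0.0186), and 7 of 8 C26-TDCA libraries lay above the highest C26 library. Dmxl2, a regulator of the vesicular proton pump, went from 20.02 ± 4.07 to 32.8 ± 7.10 CPM (0.72, SE 0.15, adjusted p = 0.0174). Exph5, an effector of the GTPase Rab27, went from 6.37 ± 3.11 to 12.2 ± 3.59 CPM (0.94, SE 0.22, adjusted p = 0.0283). Ankrd12, the gene with the lowest p and chosen after its values were seen, went from 5.48 ± 1.07 to 9.74 ± 1.71 CPM (0.83, SE 0.12, adjusted p = 0.00492). Its C26 libraries reached 7.12 CPM and 7 of 8 C26-TDCA libraries lay above that.

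F8, Ttc39b and Apob, which have separate roles, were also higher. F8, which encodes coagulation factor VIII and is made mainly by sinusoidal endothelium in the liver, stood at 17.3, 20.5 and 29.0 CPM in C26 and 28.6, 33.5 and 39.9 CPM in C26-TDCA (0.64, SE 0.10, adjusted p = 0.00518). The groups overlapped only through C26 01 and C26-TDCA 08, and CT stood lower, at 12.5 ± 1.48 CPM. Ttc39b, known to promote turnover of the oxysterol receptor LXR, stood at 40.4, 45.1 and 52.6 CPM in C26 and 54.8, 68.6 and 90.3 CPM in C26-TDCA (0.62, SE 0.11, adjusted p = 0.0141). Its groups did not overlap, and CT stood at 45.7 ± 9.85 CPM. Apob, which encodes the structural protein of very low density lipoprotein, stood at 3705, 4813 and 5935 CPM in C26 and 4607, 6448 and 7238 CPM in C26-TDCA (0.38, SE 0.09, adjusted p = 0.0319). With the length and GC trend removed Apob's log2 fold change was 0.02 and that of Ttc39b 0.31, and neither was called.

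Receptors and growth factors were also among the higher genes. Nr3c1, the glucocorticoid receptor gene, stood at 38.9, 57.9 and 67.1 CPM in C26 and 58.7, 72.7 and 79.9 CPM in C26-TDCA (0.37, SE 0.09, adjusted p = 0.0395). All CT libraries lay above both groups, at 86.9 to 114 CPM. It was the only called member of the 18 genes of the glucocorticoid list (5.56%, against 1.73% of all genes higher). A single called gene in a list of this size is no result about the list. The list had a median of 0.14 and 14 members above 0, where 46.8% of all genes lay above 0. Hgf, hepatocyte growth factor, which stellate and endothelial cells make, stood at 13.2, 18.4 and 28.3 CPM in C26 and 22.1, 34.3 and 49.1 CPM in C26-TDCA (0.73, SE 0.17, adjusted p = 0.0255), against 5.86 ± 1.59 CPM in CT. In 6 of 8 C26-TDCA libraries it lay above the highest C26 library. Of the 13 mitochondrially encoded transcripts, mt-Co3, a subunit of cytochrome oxidase, was the only one called (7.69%, against 1.73% of all genes higher). It stood at 50.4 ± 6.65 CPM in C26 and 82.5 ± 30.5 CPM in C26-TDCA (0.71, SE 0.17, adjusted p = 0.0274). The 13 together summed to a median of 33985 CPM in C26, so mt-Co3 was a very small part of them. The cause of its low level was not tested. The list had a median of 0.10, or -0.09 with the trend removed, and the share of all counts on mitochondrial genes was 3.30% ± 0.39 and 3.44% ± 0.22 (exact permutation p = 0.409).

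**Figure D2:**
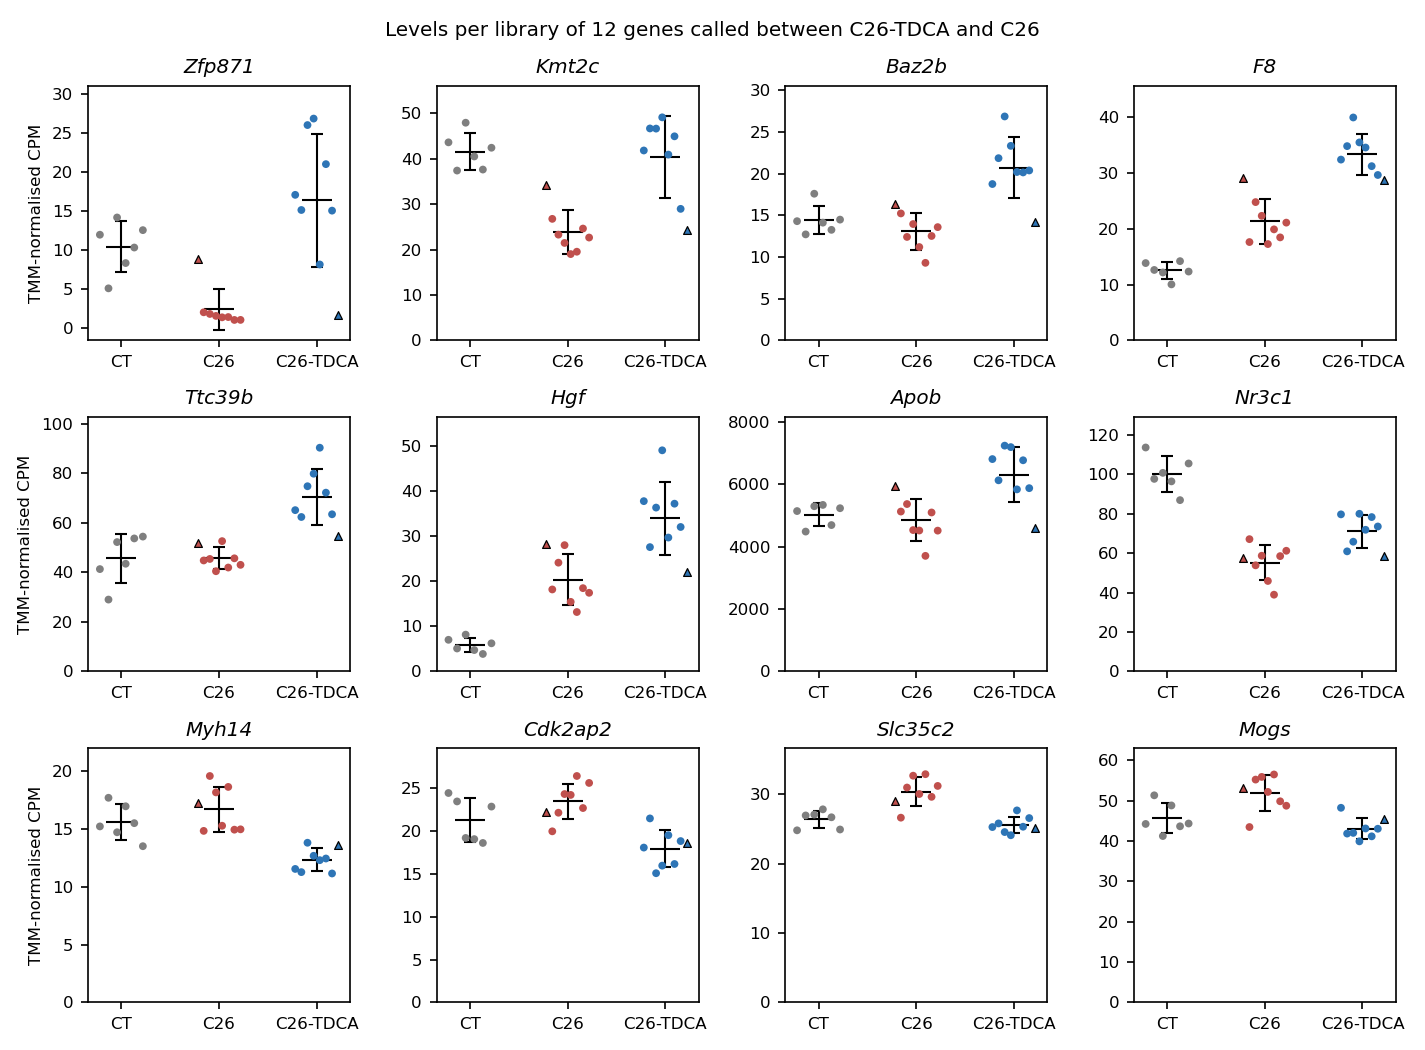
Levels in TMM-normalised CPM of 12 genes called between C26-TDCA and C26, 1 point per library, with mean and SD (n = 6 CT, 8 C26, 8 C26-TDCA; triangles: C26 01 and C26-TDCA 08; axes start at or below 0). The groups do not overlap for Ttc39b (C26-TDCA from 54.8 CPM, C26 up to 52.6 CPM) or Myh14, and the triangles are the points nearest the other group for Zfp871, Kmt2c and Baz2b.

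Genes that were lower in C26-TDCA changed little in size and were GC-rich. Myh14, a nonmuscle myosin heavy chain, stood at 14.8, 16.2 and 19.5 CPM in C26 and 11.1, 12.4 and 13.8 CPM in C26-TDCA (-0.44, SE 0.07, adjusted p = 0.0117). Its groups did not overlap, and it was the only one of the 9 lower genes named here that was called with the trend removed (-0.37, adjusted p = 0.0352 by edgeR). Slc35c2 and Mogs act on protein glycosylation. Slc35c2, a Golgi transporter linked to fucosylation, went from 30.4 ± 2.05 to 25.6 ± 1.13 CPM (-0.25, SE 0.05, adjusted p = 0.0143). Mogs, the glucosidase that starts trimming of N-glycans, went from 51.9 ± 4.40 to 43.1 ± 2.63 CPM (-0.27, SE 0.06, adjusted p = 0.0226).

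The other lower genes named by p or size have varied roles. Pfkl, the liver phosphofructokinase of glycolysis, went from 33.0 ± 4.05 to 26.4 ± 2.43 CPM (-0.32, SE 0.07, adjusted p = 0.0256). Cad, the enzyme of the first steps of pyrimidine synthesis, went from 21.2 ± 2.75 to 16.5 ± 2.22 CPM (-0.36, SE 0.09, adjusted p = 0.0415), and CT stood at 12.1 ± 1.48 CPM. Ints1, a subunit of the Integrator complex, fell by 0.34 (SE 0.08, adjusted p = 0.0240). These changes were each under 1.3-fold. Atp13a1, a transporter of the endoplasmic reticulum membrane, and Dpp3, a dipeptidyl peptidase, fell by 0.25 (SE 0.05, adjusted p = 0.0216) and 0.27 (SE 0.06, adjusted p = 0.0202). Cdk2ap2 fell by 0.39 (SE 0.08, adjusted p = 0.0174), from 23.4 ± 2.09 to 17.9 ± 2.12 CPM. For Pfkl, Atp13a1, Dpp3 and Cdk2ap2, 7 of 8 C26-TDCA libraries lay below the lowest C26 library.

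Genes of bile acid synthesis came first among the lists that the series title bears on. Of 18 tested genes of synthesis and conjugation, 0 were called by edgeR, DESeq2 or voom, 0 had an unadjusted p under 0.05, and the median log2 fold change was -0.01. Over all genes 1.97% were called and 15.8% had an unadjusted p under 0.05, so that 0 called genes in a list of this size, here and in the lists below, is near the background and is no result about the list. Cyp7a1 stood at 2.38, 31.9 and 51.2 CPM in C26 and 2.90, 25.8 and 96.2 CPM in C26-TDCA (0.37, 95% interval -0.77 to 1.5, adjusted p = 0.801). Its spread within each group was wider than the difference between them, so that the interval runs from lower to more than 2-fold higher, and CT stood at 119 to 548 CPM. Cyp8b1, which directs synthesis to cholic acid, the parent of deoxycholic acid, stood at 36.1, 77.3 and 133 CPM in C26 and 36.5, 61.8 and 136 CPM in C26-TDCA (-0.13, interval -0.65 to 0.40, adjusted p = 0.866). The alternative pathway enzymes Cyp27a1 and Cyp7b1 had log2 fold changes of -0.05 (interval -0.39 to 0.28) and -0.07 (interval -0.60 to 0.46). Baat, which joins bile acids to taurine or glycine, was measured more precisely, at 141 ± 11.7 CPM in C26 and 142 ± 23.6 CPM in C26-TDCA (0.00, interval -0.16 to 0.17, adjusted p = 0.989).

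Transport of bile acids was measured next. Of 16 tested transporters 0 were called by edgeR, DESeq2 or voom and 2 had an unadjusted p under 0.05, with a median of 0.06. Slc10a1, the sodium-dependent uptake transporter, stood at 195, 253 and 355 CPM in C26 and 214, 242 and 280 CPM in C26-TDCA (-0.08, interval -0.27 to 0.11, adjusted p = 0.732), against 636 to 764 CPM in CT. Abcb11, the canalicular export pump, had means of 307 ± 96.3 and 313 ± 59.4 CPM (0.03, interval -0.26 to 0.32). Slco1a4, a sodium-independent uptake transporter, had the lowest p of the list and stood at 1.08, 3.17 and 4.54 CPM in C26 and 2.169, 5.39 and 9.01 CPM in C26-TDCA (0.87, SE 0.29, unadjusted p = 0.00665 by edgeR, adjusted p = 0.131), against 18.2 to 41.9 CPM in CT. In 5 of 8 C26-TDCA libraries it lay above the highest C26 library, and it was not called by DESeq2 (adjusted p = 0.0936).

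Of 18 tested bile acid receptors and FXR targets 0 were called by these 3 tools, and 2 had an unadjusted p under 0.05, with a median of -0.06. Nr1h4, the FXR gene, stood at 97.2 ± 28.6 CPM in C26 and 86.4 ± 11.7 CPM in C26-TDCA (-0.17, interval -0.44 to 0.10, adjusted p = 0.568). Its target Nr0b2 stood at 17.8 ± 3.60 and 16.8 ± 1.86 CPM (-0.08, interval -0.56 to 0.40, adjusted p = 0.913). S1pr2 stood at 16.3 ± 2.26 and 14.8 ± 1.89 CPM (-0.14, interval -0.34 to 0.06, adjusted p = 0.522), and CT stood at 6.01 ± 1.05 CPM. Rxrb, a partner of nuclear receptors, had the lowest p of the list (-0.15, SE 0.07, adjusted p = 0.296).

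Genes of cholesterol synthesis lay mostly below 0 without passing the test. Of 21 enzymes 0 were called by edgeR, DESeq2 or voom and 0 had an unadjusted p under 0.05. A positive log2 fold change was found for 3 of them, against 46.8% of all genes, and the median was -0.19 against -0.01 for all genes. Sqle, squalene epoxidase, stood at 33.2, 104 and 140 CPM and at 27.7, 88.6 and 110 CPM (-0.27, interval -0.88 to 0.33, adjusted p = 0.706). Dhcr7, which makes cholesterol in the last step of one branch, had the lowest p of the list (-0.32, interval -0.67 to 0.04, adjusted p = 0.375). The groups overlapped for both enzymes, and Sqle varied several-fold between libraries of one group.

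Uptake, sensing and efflux of cholesterol gave 1 called gene, Ttc39b. It was 1 of 21 in the uptake and sensing list (4.76%, against 1.73% of all genes higher), and the list's median was -0.04. Of 17 LXR targets and efflux genes 0 were called by edgeR, DESeq2 or voom and 2 had an unadjusted p under 0.05 (median 0.00). Srebf2, the transcription factor that drives sterol synthesis and uptake, stood at 50.5 ± 9.34 and 42.2 ± 7.61 CPM (-0.26, interval -0.49 to -0.03, adjusted p = 0.245). Abca1, the pump that loads cholesterol onto apolipoprotein A-I, stood at 252, 322 and 633 CPM in C26 and 312, 475 and 682 CPM in C26-TDCA (0.41, interval 0.07 to 0.75, adjusted p = 0.213 by edgeR). C26 01 held the highest C26 value and C26-TDCA 08 the lowest C26-TDCA value of Abca1, and without both it was called (0.64, adjusted p = 0.00365). With the length and GC trend removed from all libraries, Abca1 was at 0.20 and not called (adjusted p = 0.576 by edgeR). Abcg5 and Abcg8, which together export cholesterol into bile, had log2 fold changes of 0.25 (interval 0.01 to 0.50, adjusted p = 0.305) and 0.14 (interval -0.11 to 0.39, adjusted p = 0.615). Of 25 lipoprotein genes Apob was the only one called (4%, against 1.73% of all genes higher), and the list's median was -0.05.

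**Figure D3:**
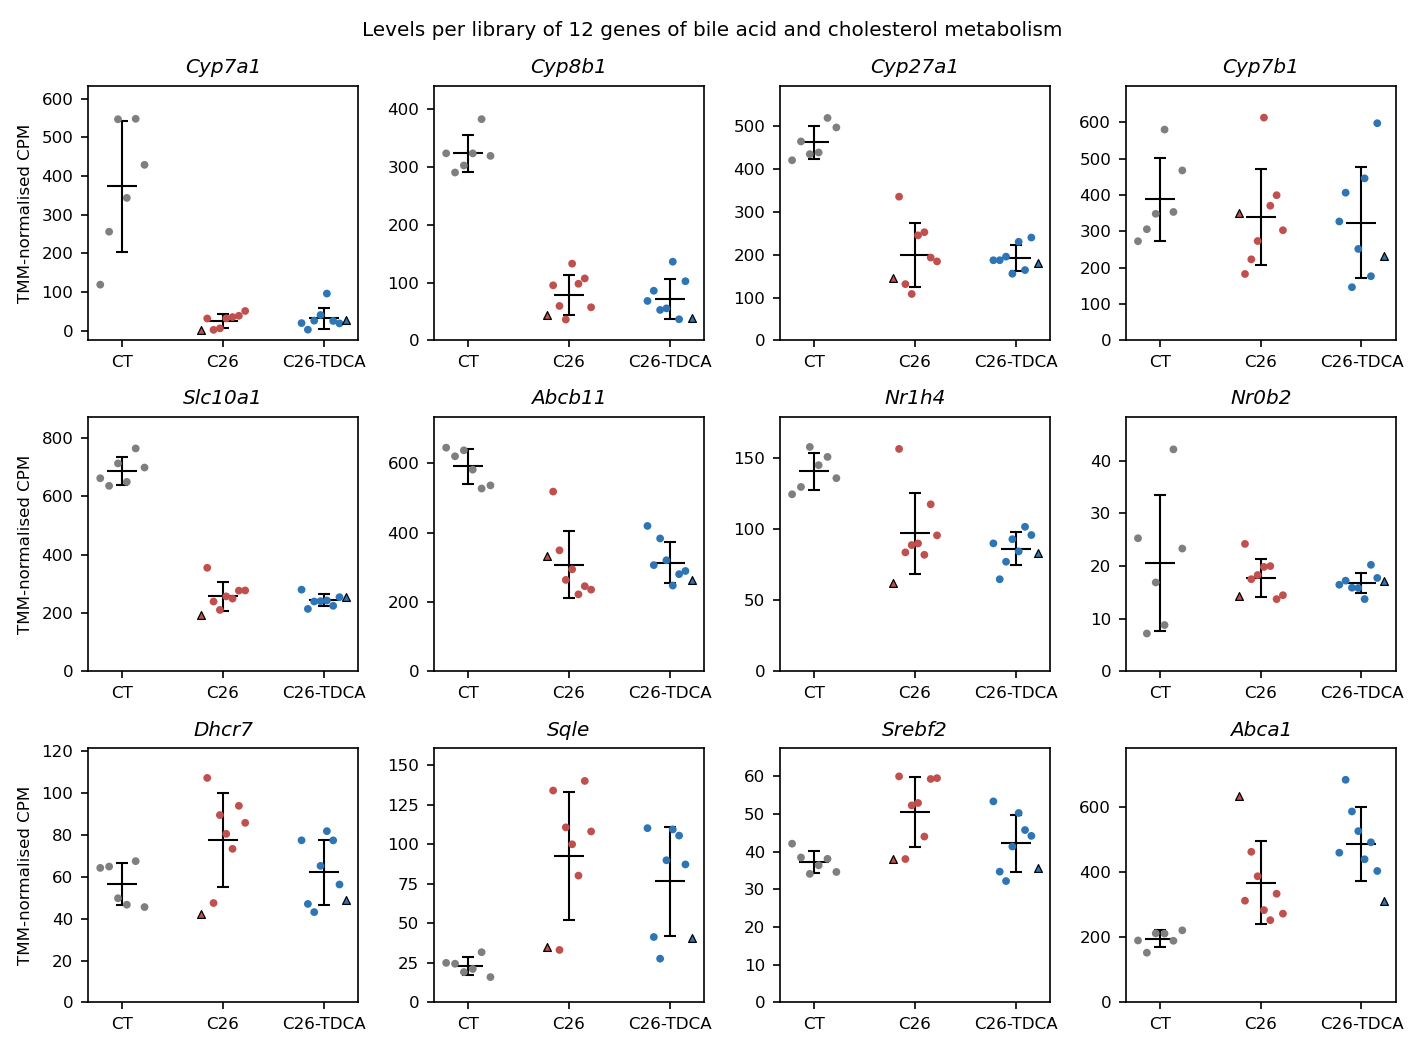
Levels in TMM-normalised CPM of 12 genes of bile acid and cholesterol metabolism, 1 point per library, with mean and SD (n = 6 CT, 8 C26, 8 C26-TDCA; triangles: C26 01 and C26-TDCA 08). By edgeR 0 of the 12 were called, and C26-TDCA and C26 overlap in each panel, while Cyp7a1 lies at 119 to 548 CPM in CT and at 2.38 to 96.2 CPM in tumour-bearing mice.

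The other metabolic lists given here had 0 members called by edgeR. Of 32 PPAR-alpha targets and other fatty acid oxidation genes 0 were called by edgeR or voom, 1 was lower by DESeq2 and 6 had an unadjusted p under 0.05, 5 of them lower (median -0.12). Of 23 genes of lipogenesis and triglyceride synthesis 0 were called (0 by DESeq2 and by voom, 3 at an unadjusted p under 0.05; median -0.15), with Pklr, the liver pyruvate kinase, at 43.3 ± 29.2 and 29.5 ± 9.03 CPM (-0.55, SE 0.25, adjusted p = 0.272). Of 37 genes of the urea cycle and amino acid catabolism 0 were called by any of the 3 tools and 4 had an unadjusted p under 0.05, all 4 higher. In that list 29 of 37 lay above 0, where 46.8% of all genes did, and the median was 0.09 against -0.01 for all genes. Cps1, the first enzyme of the urea cycle, stood at 2018 ± 495 CPM in C26 and 2608 ± 826 CPM in C26-TDCA (0.37, SE 0.17, adjusted p = 0.281).

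The lists of genes of the inflamed liver given here also had 0 members called by edgeR. Of 34 positive acute phase proteins 0 were called by the 3 tools and 3 had an unadjusted p under 0.05 (median -0.06). Itih4, a plasma protease inhibitor heavy chain, stood at 24605, 28858 and 31661 CPM in C26 and 23121, 25102 and 28661 CPM in C26-TDCA (-0.17, SE 0.06, adjusted p = 0.168), against 1762 ± 123 CPM in CT. Of 35 complement and coagulation genes 0 were called by edgeR, 2 were lower by DESeq2, 1 was lower by voom and 6 had an unadjusted p under 0.05. C4b, a complement component, stood at 3481 ± 265 and 2999 ± 251 CPM (-0.21, SE 0.06, adjusted p = 0.0842 by edgeR and 0.0197 by DESeq2). Of 29 interferon-stimulated genes 0 were called by edgeR, 1 was lower by DESeq2, 0 were called by voom and 3 had an unadjusted p under 0.05. That gene, Tap1, a peptide transporter of antigen presentation, stood at 27.4 ± 2.18 and 21 ± 3.96 CPM (-0.39, SE 0.10, adjusted p = 0.0535 by edgeR and 0.0173 by DESeq2). Il6st, the shared receptor subunit of interleukin-6 signalling, stood at 381 ± 64.7 and 456 ± 44.9 CPM (0.26, SE 0.09, adjusted p = 0.152). Igf1, the growth factor that growth hormone induces in liver, stood at 508 ± 66.8 and 626 ± 66.5 CPM (0.30, SE 0.09, adjusted p = 0.0665 by edgeR and 0.0208 by DESeq2), but at a log2 fold change of -0.01 with the length and GC trend removed.

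Nuclear-encoded transcripts of ribosomes and of the respiratory chain had medians slightly below 0. Over all genes tested the median was -0.01 and 46.8% lay above 0. Of 80 cytosolic ribosomal protein genes 0 were called by edgeR, DESeq2 or voom, 7 had an unadjusted p under 0.05, all lower, and 2 lay above 0 (median -0.09, also -0.09 with the trend removed). Of 77 mitochondrial ribosomal protein genes 0 were called by these tools and 9 lay above 0 (median -0.08; 4 at an unadjusted p under 0.05). Of 51 nuclear subunits of oxidative phosphorylation 0 were called by these tools and 6 lay above 0 (median -0.05; 2 at an unadjusted p under 0.05). The list of integrated stress and unfolded protein response genes was at a median of -0.11, with 0 of 29 called by edgeR, 1 lower by DESeq2 and by voom and 6 at an unadjusted p under 0.05. Syvn1, a ubiquitin ligase that clears misfolded proteins, stood at 95.2 ± 11.1 and 77.4 ± 11 CPM (-0.30, SE 0.09, adjusted p = 0.0740 by edgeR and 0.0266 by DESeq2). Of 19 clock genes 0 were called by edgeR or DESeq2, 1 by voom, and 3 had an unadjusted p under 0.05. Rora, a nuclear receptor of the clock, stood at 46.0 ± 10.6 and 59.7 ± 11.2 CPM (0.38, SE 0.12, adjusted p = 0.114), or 0.55 and called without C26 01 and C26-TDCA 08 (adjusted p = 0.000518). With the length and GC trend removed from all libraries, Rora was at 0.03 and not called (adjusted p = 0.904 by edgeR).

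Marker lists of sinusoidal endothelium, stellate cells and Kupffer cells had medians above 0, and 4 of their members passed the test. Over all 14785 genes 1.73% were called higher by edgeR and 443 genes by DESeq2, and 46.8% lay above 0. The list of monocytes and neutrophils also had a median above 0 (0.10, with 9 of 11 members above 0). The lists of cholangiocytes, T and NK cells, and B and plasma cells had medians of -0.09, -0.25 and -0.22. Of 15 markers of sinusoidal endothelium 1 was higher by edgeR and 4 by DESeq2, 14 lay above 0 and the median was 0.21 (0.18 with the trend removed). The list summed to 549, 743 and 900 CPM (lowest, median and highest library) in C26 and to 739, 851 and 942 CPM in C26-TDCA, against 424 to 510 CPM in CT. F8, which is not on the list, rose beside it, and the part of these cells in that rise was not tested. Bmp2, an endothelial signal that induces hepcidin in hepatocytes, stood at 14.3, 19.8 and 24.1 CPM in C26 and 18.0, 26.2 and 32.1 CPM in C26-TDCA (0.40, SE 0.11, adjusted p = 0.0483). Of 14 stellate cell markers 2 were higher, Hgf and Vipr1, 10 lay above 0 and the median was 0.18. Their log2 fold changes ran from -1.08 to 0.73. At an unadjusted p under 0.05 by edgeR 5 were higher and 1 lower. These markers summed to 432, 572 and 663 CPM in C26 and to 543, 661 and 740 CPM in C26-TDCA. Vipr1, a receptor for vasoactive intestinal peptide, went from 21.7 ± 3.97 to 30.1 ± 4.26 CPM (0.47, SE 0.11, adjusted p = 0.0260) and was called with the trend removed (0.53, adjusted p = 0.0481 by edgeR). The part of stellate cell number in Hgf and Vipr1 was not tested. Of 14 Kupffer cell markers 13 lay above 0 and 1 was called, Slc40a1, the iron exporter ferroportin (0.33, SE 0.08, adjusted p = 0.0372), which stood at 118 ± 12 and 147 ± 21 CPM. It was not called without C26 01 and C26-TDCA 08 (0.26, adjusted p = 0.0667).

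Markers of blood and of neighbouring tissues had 0 called members. Of 11 monocyte and neutrophil markers 0 were called by edgeR, DESeq2 or voom, and 0 had an unadjusted p under 0.05. Csf3r, the receptor for granulocyte colony-stimulating factor, stood at 7.41 ± 2.43 and 8.27 ± 2.23 CPM (0.16, SE 0.19, adjusted p = 0.747). The 8 erythroid markers tested summed to 171 to 671 CPM in C26 and to 163 to 345 CPM in C26-TDCA, with 0 called by the 3 tools, 2 at an unadjusted p under 0.05, 0 above 0 and a median of -0.47. Cholangiocyte markers summed to 258 to 786 CPM in C26 and to 273 to 654 CPM in C26-TDCA, with 0 of 8 called by the 3 tools and 1 at an unadjusted p under 0.05. Of 12 exocrine pancreas markers 1, Cela1, was tested, which CT liver also held at 34.2 to 41.4 CPM. It stood at 5.82 to 14.7 CPM in C26 and at 4.95 to 8.88 CPM in 7 C26-TDCA libraries, but at 53.0 CPM in C26-TDCA 07.

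**Figure D4:**
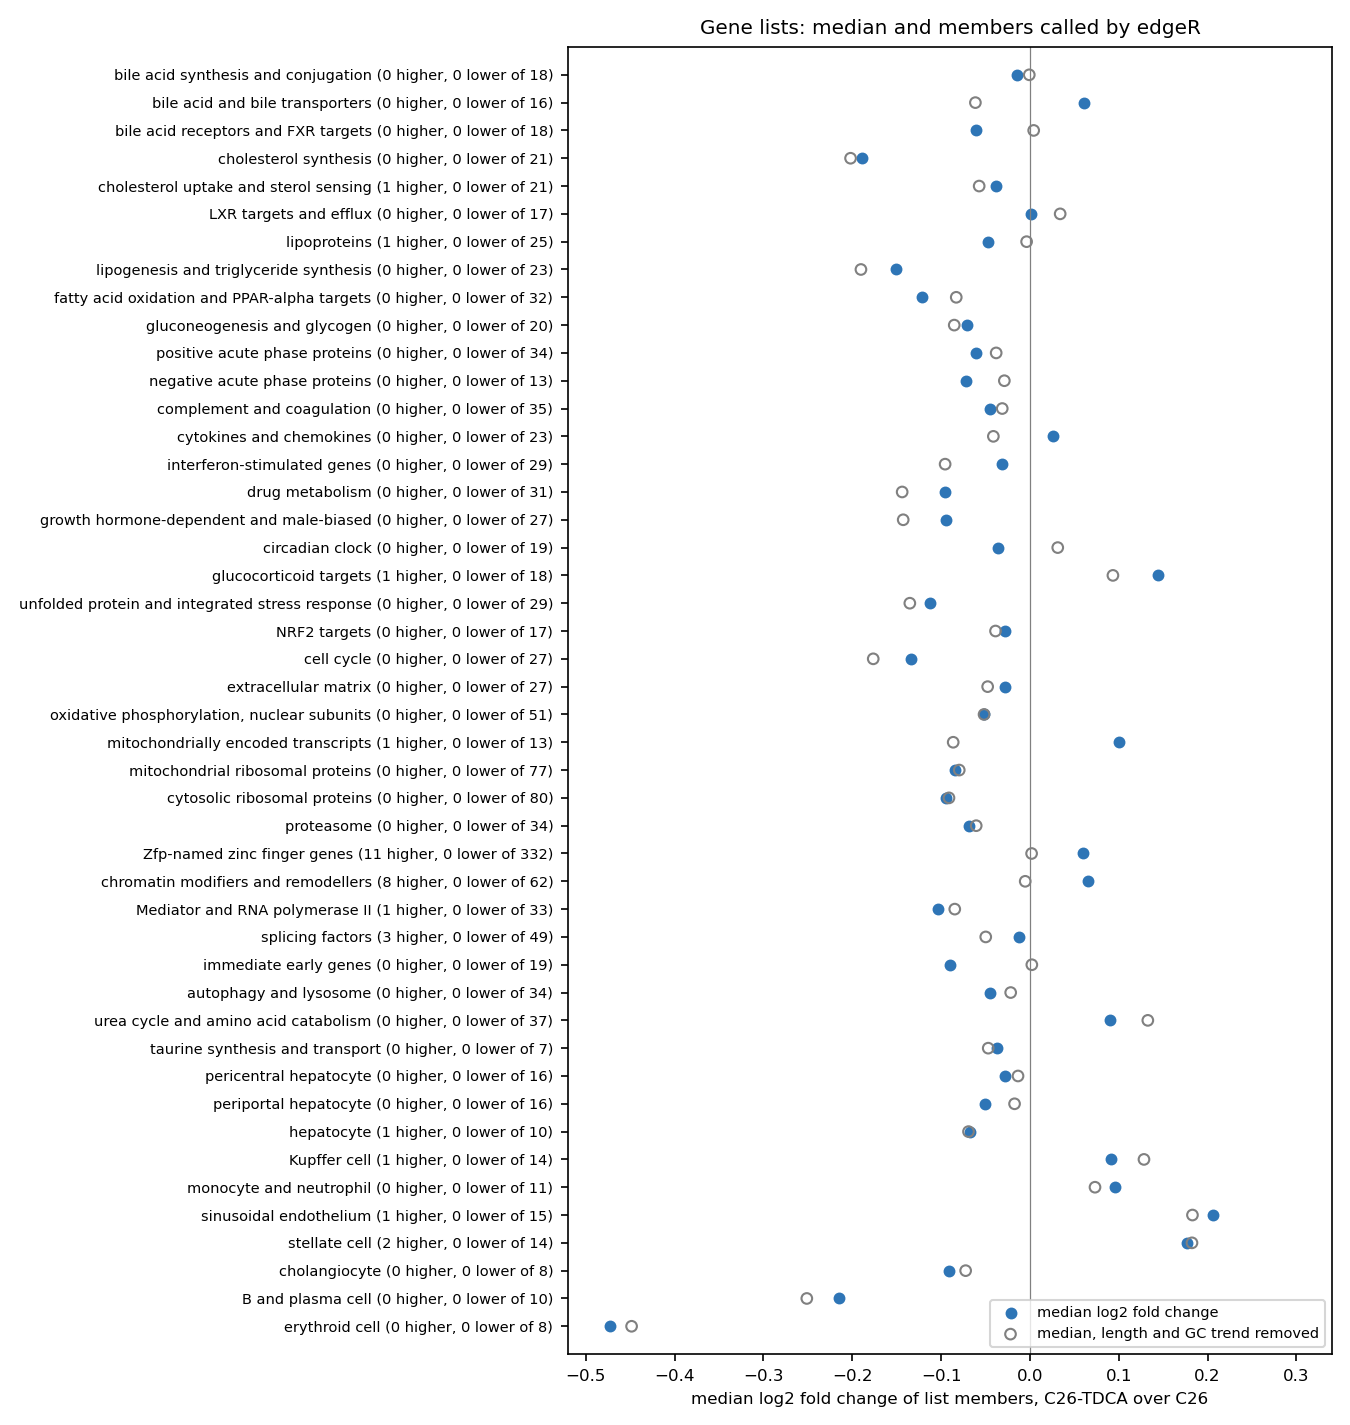
Median log2 fold change of C26-TDCA over C26 for the gene lists with at least 7 tested members (filled circles) and the same with the length and GC trend removed (open circles), with the number of members called higher and lower by edgeR beside each name. Medians run from -0.47 (erythroid markers) to 0.21 (sinusoidal endothelium). The largest list, that of the 332 Zfp-named genes, has the most called members, 11 (3.31%, against 1.73% of all genes higher). The highest share called is 14.3%, in the list of stellate cell markers (2 of 14).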

How the data were processed

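The authors deposited 1 table of raw read counts per gene, with 15448 genes and 22 libraries. Per the submitters' processing notes, reads were handled with HISAT2 2.2.1 and GRCm38, Trimmomatic 0.40, featureCounts 2.0.3, bcl2fastq 2.17 and FastQC. For the annotation, the strand setting and reads matching more than 1 gene, the choice is not given in the sources used here. Gene symbols, transcript length and GC were taken from GENCODE M21. Here, edgeR 4.0.16 (R 4.3.3, limma 3.58.1) was fitted to all 22 libraries after filterByExpr (minimum count 10; 663 genes removed) and TMM scaling, with the quasi-likelihood test and Benjamini-Hochberg adjustment over all 14785 genes at 0.05. Standard errors are the log2 fold change over the root of F. The length and GC trend was a loess curve (span 0.3) per library, used as an offset. Library measures were tested over all 12870 regroupings. DESeq2 1.42.0, voom with quality weights, other scalings and filters, a replicate block and 16 fits leaving out 1 library were alternatives. The edgeR step was tested on simulated data.

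The genes named were, of called genes with at least 10 CPM and an established symbol, the 8 with the highest and 8 with the lowest fold change and the 6 per direction with the lowest p, up to 3 called members (or the lowest p) per list, and a fixed set of bile acid and cholesterol genes, of which the text gives those it needs. The 50 lists, the genes and the tests were chosen with earlier results of these data known. Residuals of same-numbered C26 and C26-TDCA libraries correlated at -0.20 to 0.34, and the labels do not say that a number pairs samples, so no block was used. Results for some genes are not reported here.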

Additional observations from a re-analysis of the deposited data

Results flagged for a closer look

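Of 142 sets of 8 libraries examined, 12 held a library whose gap to its nearest neighbour was more than 0.526 of the whole range. For independent values with a normal spread chance gives about 1 in 20. The sets share libraries and include genes chosen for their calls or after their values were seen. The 12 can therefore not be set against that rate. C26 01 was such a library for Zfp871 (8.79 CPM, others 1.05 to 2.03 CPM), F830016B08Rik (16.4 CPM, others 1.74 to 4.06 CPM), Bdp1 (16 CPM, others 6.87 to 11.1 CPM) and Smg1 (58.8 CPM, others 32.7 to 43.9 CPM). C26-TDCA 08 was one for Bdp1, at 9.82 CPM against 16.9 to 21.5 CPM in the others.

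In C26 02, Pklr stood at 114 CPM (others 24.0 to 41.0 CPM) and Abcb11 at 518 CPM (others 222 to 349 CPM). In C26 03, Ints1 stood at 17.5 CPM (others 20.6 to 22.8 CPM). In C26-TDCA 01, Pklr stood at 49.2 CPM (others 21.3 to 33.4 CPM). In C26-TDCA 05, Cyp7a1 stood at 96.2 CPM (others 2.90 to 40.7 CPM), and without that library its log2 fold change was -0.12. In C26-TDCA 07, Cela1 stood at 53.0 CPM (others 4.95 to 8.88 CPM) and the slope of log2 CPM on transcript length was 0.540 (others 0.605 to 0.652).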

How the results depend on the processing

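Counts of higher and lower genes were 256 and 35 by edgeR, 443 and 111 by DESeq2, and 409 and 59 by voom with quality weights. They were 41 and 4 from the C26 and C26-TDCA libraries alone, and 9 and 8 after removal of the length and GC trend. Without both C26 01 and C26-TDCA 08 they were 691 and 94, and, in fits added after seeing the data, 147 and 95 with the trend also removed and 468 and 44 from these groups alone. With the replicate block they were 19 and 2, and with the replicate block and the trend removed 0 and 0 (1497 genes at an unadjusted p under 0.05). The labels do not say that a replicate number pairs samples. Of the 8 same-number correlations 5 were over 0.1, and 3 (numbers 3, 4 and 8) were above every correlation with another number. Upper-quartile scaling gave 204 and 48 (81.0% higher, against 88.0%), and DESeq2 size factors and other filters stayed within 1.5 times. The cause of these differences was not tested.

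Leaving out 1 library gave 54 (C26-TDCA 04) to 527 (C26 01) higher and 5 (C26-TDCA 04) to 67 (C26 01) lower genes. Leaving out C26 05, 06, 07 or 08 or C26-TDCA 02, 03, 05, 06 or 08 also moved a count by over 1.5 times. Of the 27 higher and 9 lower genes named with values, 13 and 3 were called in all 16 such fits. Those lost in at least 1 were Exph5, Prex2, Hgf, mt-Co3, Chd1, Med14, Rbm25, Son, Prpf4b, Apob, Nr3c1, Slc40a1, Bmp2, Vipr1, Cad, Ints1, Pfkl, Dpp3, Atp13a1 and Mogs. The difference in GC slope lay between -0.156 and -0.114, and that in length slope between 0.027 and 0.051, passing its test without C26 01 or without C26-TDCA 07.

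Among the genes named with values, signs turned only for those that were not called. With the trend removed the log2 fold change was -0.011 for Igf1, 0.014 for Cyp27a1, -0.041 for Baat, -0.066 for Abcb11 and 0.0037 for Nr0b2. With the replicate block it was -0.076 for Cela1, 0.022 for Cyp27a1 and -0.0096 for Baat, and with the replicate block and the trend removed 0.084 for Cyp27a1, -0.042 for Baat, -0.037 for Abcb11 and 0.017 for Nr0b2. Without both libraries and the trend it was -0.064 for Igf1, -0.034 for Baat and -0.038 for Abcb11, and from these groups alone without both -0.0032 for Baat. By voom it was -0.23 for Cela1, 0.019 for Cyp27a1 and -0.042 for Baat, by DESeq2 -0.27 for Cela1 and -5.59e-05 for Baat, with DESeq2 size factors -0.00030 for Baat and with upper-quartile scaling -0.020 for Baat. Leaving out 1 library gave -0.12 to 0.60 for Cyp7a1, -0.32 to 0.023 for Cyp8b1, -0.14 to 0.095 for Cyp27a1, -0.26 to 0.11 for Cyp7b1, -0.067 to 0.045 for Baat, -0.13 to 0.0011 for Slc10a1, -0.042 to 0.18 for Abcb11 and -0.45 to 0.56 for Cela1. At the depth of these libraries 3 counts are 0.106 to 0.182 CPM, and the median biological coefficient of variation was 15.1%.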
